A study of Mus musculus with 32 samples.

Results

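H3K27ac was compared between Kat2a WT and Kat2a KO MLL-AF9 leukemia of the mouse, from the deposited peak lists of its 4 ChIP-seq libraries. Every peak of these lists was taken, 105320 of the 463075 peaks in the 16 lists of the series. The 75804 peaks of replicate 2, 29757 in WT and 46047 in KO, carry the comparison, and replicate 1, whose listed peaks are mostly about 50 bp long, served as a check. Donors of both genotypes were Kat2a Flox/Flox in a C57Bl/6 background and were given pIpC; those without Mx1-Cre (Mx1-Cre -/-) are the WT group and those with it (Mx1-Cre +/-) the KO group. Lineage-depleted marrow taken 4 to 6 weeks later received the MLL-AF9 fusion by retrovirus and was transplanted into lethally irradiated mice. Marrow of terminally ill animals was pooled, 5 for WT and 4 for KO, and each H3K27ac library was made from 500000 cells of the pool, so both replicates come from the same animals. Age and sex are not in the labels, though the study's methods give an age range in weeks for the donors. The groups have limits as a model. Mx1-Cre is switched on by interferon and acts in many tissues, and the marrow was not sorted for leukemic cells. The KO allele still makes RNA, in which exons 1 and 2 run in frame into the final exon and the acetyltransferase domain is missing.

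Acetylation of histone H3 at lysine 27 marks active promoters and enhancers, and in mammals it is written mainly by the related acetyltransferases Ep300 and Crebbp. Kat2a, the catalytic subunit of the SAGA and ATAC complexes, chiefly acetylates lysine 9 of the same histone at promoters. H3K4me3 is the usual mark of promoters and H3K4me1 of enhancers and of the flanks of promoters. The MLL-AF9 fusion binds genes such as Hoxa9 and Meis1 and keeps them transcribed, which holds myeloid progenitors in a self-renewing state.

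Sequence is shown for some of the strongest regions with a peak in a single genotype, because the lists differ there most, and for the Kat2a promoter, because Kat2a is the deleted gene. For each genotype and each side of a limit of 5 kb from a transcription start site (TSS), regions were taken from the 2 with the largest fold enrichment whose window held no annotated untranslated exon. Each window is 300 bases of mm10 (GRCm38.p6) around the peak summit, on the plus strand, with positions counted from 1. A region is named by its nearest protein-coding TSS, and the intron or exon given for it may belong to another gene. The KO-only windows near a TSS are chr3:96488023-96488322 (BC107364, intergenic) and chr2:13271656-13271955 (Rsu1, a Ras suppressor gene, in a noncoding exon). Those farther away are chr2:91498104-91498403 (Lrp4, a gene of the LDL receptor family, in a coding exon) and chr13:108268095-108268394 (Depdc1b, in an intron). The WT-only windows near a TSS are chr5:108446640-108446939 (Mfsd7a, a transporter gene, in an intron) and chr17:12754926-12755225 (Igf2r, the receptor that removes Igf2, in an intron). The window shown farther away is chr7:128570199-128570498 (Inpp5f, a phosphoinositide phosphatase gene, intergenic). The Kat2a promoter is the RefSeq window of GRCm38.p6, chr11:100712418-100712717, minus strand. Capitals mark matches on either strand to 1 of 11 motifs: GAGGAAGT for PU.1, CCGGAAGT for other ETS factors, TTGCNNAA for the C/EBP family of myeloid factors, and GCATGCGC for NRF1, a regulator of mitochondrial genes. RUNX factors, which set up blood cells, were searched by TGTGGT. AP-1, the dimer of Jun and Fos proteins, was searched by TGANTCA. Myc and related proteins were searched by their E-box CACGTG. The promoter factor NF-Y was searched by CCAATCA. SP and KLF proteins, which bind promoters rich in CpG, were searched by GGGCGG. The GATA factors of blood progenitors were searched by AGATAA. The homeobox protein Meis1 and its relatives were searched by TGACAG. PU.1 and ETS share the letters GGAAGT.
BC107364: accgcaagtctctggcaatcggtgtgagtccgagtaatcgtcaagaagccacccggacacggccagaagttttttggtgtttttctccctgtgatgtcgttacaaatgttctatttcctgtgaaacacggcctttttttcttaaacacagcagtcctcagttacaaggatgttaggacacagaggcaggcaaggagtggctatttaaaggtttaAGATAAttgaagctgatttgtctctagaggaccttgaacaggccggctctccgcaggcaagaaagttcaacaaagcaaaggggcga
Rsu1: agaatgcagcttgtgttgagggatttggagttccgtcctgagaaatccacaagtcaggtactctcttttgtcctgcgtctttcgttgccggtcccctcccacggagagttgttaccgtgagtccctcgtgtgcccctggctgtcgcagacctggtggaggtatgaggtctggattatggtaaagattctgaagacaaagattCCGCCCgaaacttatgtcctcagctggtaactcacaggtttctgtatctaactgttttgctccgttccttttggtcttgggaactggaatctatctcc
Lrp4: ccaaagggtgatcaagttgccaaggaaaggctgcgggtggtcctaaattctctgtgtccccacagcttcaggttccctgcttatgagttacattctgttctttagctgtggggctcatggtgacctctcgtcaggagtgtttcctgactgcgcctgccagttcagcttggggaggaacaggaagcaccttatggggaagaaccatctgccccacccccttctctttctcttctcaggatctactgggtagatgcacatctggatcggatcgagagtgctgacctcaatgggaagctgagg
Depdc1b: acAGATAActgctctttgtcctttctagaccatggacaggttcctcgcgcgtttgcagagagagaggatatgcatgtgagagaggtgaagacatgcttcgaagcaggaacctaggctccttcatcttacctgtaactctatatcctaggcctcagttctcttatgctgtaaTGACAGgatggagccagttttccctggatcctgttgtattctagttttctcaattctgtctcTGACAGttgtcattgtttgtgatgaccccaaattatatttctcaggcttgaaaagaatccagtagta
Mfsd7a: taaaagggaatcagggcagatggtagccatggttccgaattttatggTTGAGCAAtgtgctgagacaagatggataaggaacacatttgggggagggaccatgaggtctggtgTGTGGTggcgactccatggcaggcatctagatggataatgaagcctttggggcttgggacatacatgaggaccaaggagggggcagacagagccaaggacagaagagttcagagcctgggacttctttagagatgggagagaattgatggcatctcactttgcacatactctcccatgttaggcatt
Igf2r: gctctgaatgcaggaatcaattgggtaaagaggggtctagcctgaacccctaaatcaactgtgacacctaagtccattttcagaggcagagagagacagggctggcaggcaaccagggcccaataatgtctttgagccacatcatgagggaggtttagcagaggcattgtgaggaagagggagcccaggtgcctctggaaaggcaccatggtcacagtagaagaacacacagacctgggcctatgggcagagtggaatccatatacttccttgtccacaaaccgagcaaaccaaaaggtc
Inpp5f: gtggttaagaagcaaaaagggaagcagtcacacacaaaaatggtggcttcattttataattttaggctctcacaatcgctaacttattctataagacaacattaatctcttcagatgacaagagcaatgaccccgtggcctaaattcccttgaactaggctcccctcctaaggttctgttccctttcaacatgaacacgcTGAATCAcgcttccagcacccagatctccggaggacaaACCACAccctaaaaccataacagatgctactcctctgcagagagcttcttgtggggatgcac
Kat2a promoter: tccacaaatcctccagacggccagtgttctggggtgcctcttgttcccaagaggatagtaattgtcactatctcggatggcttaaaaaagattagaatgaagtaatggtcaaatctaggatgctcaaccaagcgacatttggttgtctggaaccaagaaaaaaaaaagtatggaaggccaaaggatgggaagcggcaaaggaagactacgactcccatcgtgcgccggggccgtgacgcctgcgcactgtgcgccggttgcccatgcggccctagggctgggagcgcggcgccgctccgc
The BC107364 window held 1 GATA match, Rsu1 1 SP/KLF match, Depdc1b 1 GATA and 2 MEIS matches, Mfsd7a 1 C/EBP and 1 RUNX match, and Inpp5f 1 RUNX and 1 AP-1 match. Lrp4, Igf2r and the Kat2a promoter held none of the 11. Such matches are common: of all 46722 region windows of the same length, 20.9% held the MEIS letters, 20.1% RUNX, 17.8% SP/KLF, 11% GATA, 10.1% C/EBP and 7.34% AP-1, so a match describes a window and no more. The windows differ in CpG: 19 in the Kat2a promoter and 11 each in BC107364 and Rsu1, against 2 in Mfsd7a and 1 in Igf2r.

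The genotype labels were checked at Kat2a and at genes that mark the leukemia. Replicate 2 of either genotype listed H3K27ac at the Kat2a promoter, 336 bp wide with a fold enrichment of 4.38 in WT and 452 bp wide with 5.07 in KO. From 10 kb before to 10 kb past the gene, WT peaks covered 1.53 kb and KO peaks 6.52 kb. The promoter and the exons next to it are not part of the excised stretch, so these lists do not measure excision. Of 11 myeloid leukemia markers (the granule enzyme genes Mpo, Elane, Prtn3 and Ctsg, the integrin Itgam, the cytokine receptors Csf1r and Csf3r, and the transcription factor genes Spi1, Cebpa, Hoxa9 and Meis1), 10 had a promoter peak in WT, all but Elane, and 11 had one in KO. H3K27ac covered 76.8 kb around the 11 in WT and 128 kb in KO.

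The pools also differed at sex-linked genes, which were picked out after their values were seen. The 4 Y-linked genes Eif2s3y, Kdm5d, Uty and Ddx3y each had an H3K27ac peak at the start in KO replicate 2, between 474 and 711 bp wide, and none had a peak in WT replicate 2. Xist, the RNA gene of the inactive X chromosome, had 935 bp at a fold enrichment of 7.06 in WT against 245 bp at 3.49 in KO. H3K9ac was split the same way: 4 of the 4 Y genes in each KO replicate against 1 and 0 in WT, and 3097 and 2702 bp at the start of Xist in WT against 598 and 485 bp in KO. The sex of donors and recipients is not in the labels, so a difference in sex between the pools cannot be told apart from genotype here. On X the KO list held 1.59 times as many peaks as the WT list, within the range of the autosomes (1.44 to 1.67). In the equal-length lists it was 1.09, above the autosomes, which ranged from 0.932 to 1.05. Without X and Y there were 20987 shared, 2238 WT-only and 22783 KO-only regions, against 21324, 2266 and 23132 with them, and the shares of peaks with a partner were 92.4% for WT and 49.7% for KO.

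Almost every WT peak lay where KO had a peak too, while about as many KO peaks stood alone as did not. At the strong end the lists met: each of the 5000 strongest WT peaks overlapped a KO peak, and 2 of the 5000 strongest KO peaks overlapped no WT peak. Most KO peaks without a partner were weak and narrow, with a median width of 338 bp. In unsorted marrow, fewer cells with H3K27ac at a site and less H3K27ac per cell cannot be told apart. Of the WT peaks, 92.4% (95% Wilson interval 92.1 to 92.7) overlapped a KO peak, and of the KO peaks 49.8% (49.3 to 50.2) overlapped a WT peak. The intervals cover counting error only, since peaks are not independent replicates. With the KO list shortened to its 29757 peaks of smallest p, the shares were 85.2% (84.8 to 85.6) for WT and 68.1% (67.6 to 68.6) for KO. The peaks without a partner had a median fold enrichment of 3.47 in WT and 3.49 in KO, against 4.46 and 6.11 for those with one.

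Strength separated the peaks that were shared from those that were not. In deciles of −log10 p, from the weakest to the strongest, the share of WT peaks met by a KO peak went from 82.1% to 100%, with its lowest value, 78.1%, in decile 2. The share of KO peaks met by a WT peak went from 12.9% in the weakest decile to 42.5% in decile 6 and 98.3% in decile 9. With lists of equal length the weakest KO decile stood at 28.2% and the weakest WT decile at 68.5%. Among the 10000 strongest peaks of each full list, 18 WT peaks (0.180%) and 136 KO peaks (1.36%) had no partner in the other list. Of these, 12 and 98 were near a TSS.

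**Figure D1:**
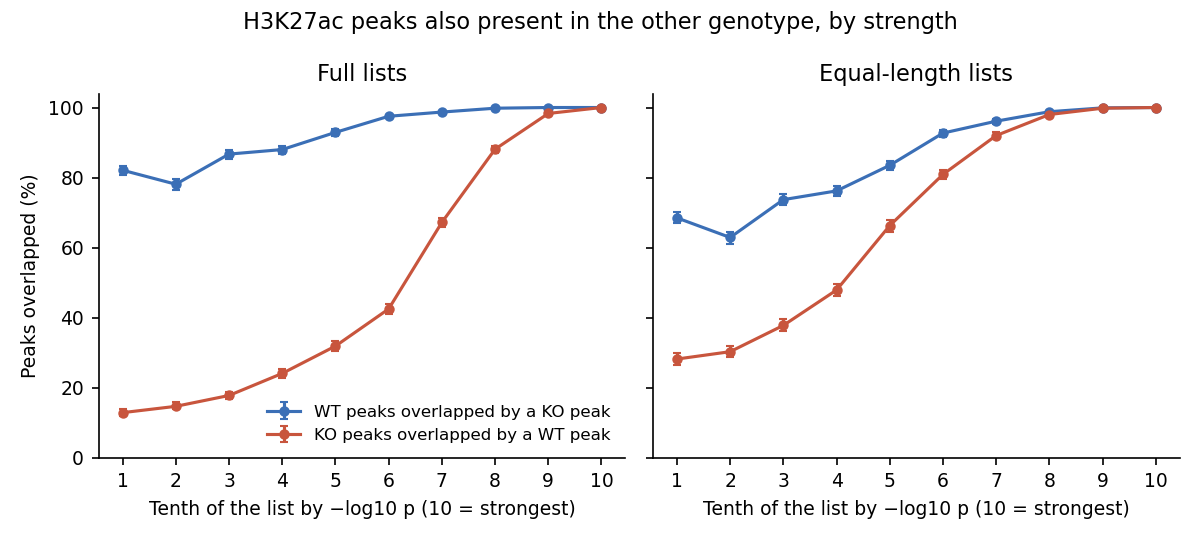
Share of H3K27ac peaks overlapped by a peak of the other genotype (vertical axis, %) by decile of −log10 p (horizontal axis, 10 = strongest), in replicate 2; bars are 95% Wilson intervals. Both curves reach 100% in the strongest decile, and the KO curve starts at 12.9% with the full lists and 28.2% with lists of equal length.

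Merging the lists gave 46722 regions: 21324 with peaks of both genotypes, 2266 WT-only and 23132 KO-only. The shared regions were promoter-centered and broad, and the regions of either genotype alone were narrow and lay farther from TSS. Within 5 kb of a TSS lay 69.7% (69.1 to 70.3) of shared, 47.8% (45.7 to 49.9) of WT-only and 50.1% (49.5 to 50.8) of KO-only regions. The gap was wider close to the TSS: 53.3% of shared regions had their center within 1 kb, against 19.5% of WT-only and 21.6% of KO-only. Distances from 1 to 5 kb held 16.4% of shared, 28.2% of WT-only and 28.5% of KO-only regions, those at Mfsd7a and Igf2r among them. Equal list length gave 19320 shared, 4395 WT-only and 9490 KO-only regions, of which 71.4%, 50.3% and 53.4% lay within 5 kb.

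**Figure D2:**
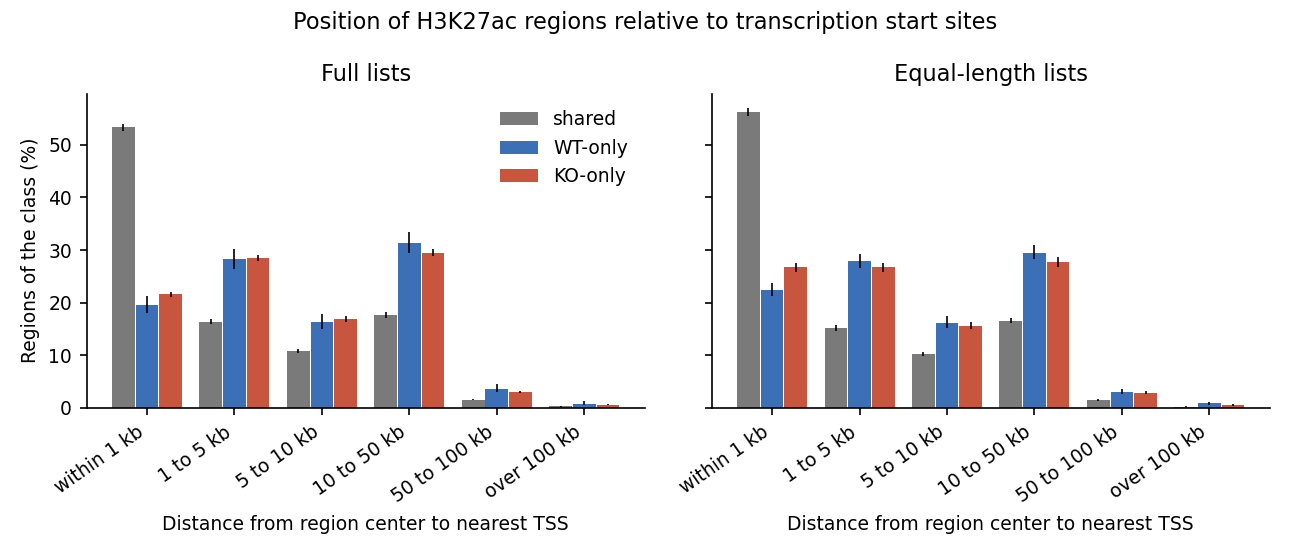
Share of the regions of each class (vertical axis, %) by distance from the region center to the nearest annotated TSS (horizontal axis, kb), with the full lists on the left and lists of equal length on the right; bars are 95% Wilson intervals. Shared regions lead only in the class within 1 kb (53.3% and 56.2%). WT-only and KO-only regions are close to each other in the full lists, while at equal length they differ within 1 kb (22.4% and 26.7%).

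Shared regions were wider than the regions of either genotype alone. The median width was 1010 bp for shared regions, 281 bp for WT-only and 338 bp for KO-only, and the widest regions were 15393, 1041 and 3496 bp. KO-only regions together covered 9.48 Mb and WT-only regions 0.709 Mb, against 27.6 Mb for shared regions. For lists of equal length the medians were 1078, 300 and 432 bp and the covered lengths 26.2, 1.52 and 4.79 Mb. KO-only regions stayed more numerous than WT-only regions. The cut removed only the weakest KO peaks, which are narrow, so it cannot check the difference in width. Near and far regions of a class had about the same width (283 and 279 bp for WT-only, 343 and 334 bp for KO-only). Away from TSS, 57.8% (56.9 to 58.7) of KO-only and 52.0% (49.1 to 54.8) of WT-only regions were centered in introns, beside 52.1% of shared regions.

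WT-only regions lay closer to KO peaks than KO-only regions did to WT peaks, by a margin that was smaller with lists of equal length. The median WT-only region lay 428 bp from the nearest KO peak, and 64.3% (62.3 to 66.2) lay within 1 kb of one. For KO-only regions the distance had a median of 2805 bp to the nearest WT peak and 34.5% (33.9 to 35.2) within 1 kb. Those far from a TSS had a median of 4667 bp. At equal list length the medians were 1087 bp for WT-only and 2358 bp for KO-only regions, with 49.1% (47.6 to 50.6) and 38.8% (37.9 to 39.8) within 1 kb.

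Where both genotypes had H3K27ac, the KO peaks covered more of the region. The median ratio of covered length, KO over WT, was 1.36 (95% interval of the median 1.35 to 1.37), and 85.9% of the 21324 shared regions were wider in KO. The ratio was 1.34 near a TSS and 1.41 farther away. Lists of equal length gave 1.37. At least 2-fold wider were 3937 regions (18.5%) in KO and 121 (0.567%) in WT. Peaks of 2 kb and more numbered 919 in WT and 3000 in KO.

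Among shared regions with at least 2 kb covered in the wider genotype, the largest ratio toward KO was 9.96, at Ago2. There, in an intron of Ago2, which encodes an Argonaute protein of the RNA-silencing machinery, the peaks covered 399 bp in WT and 3973 bp in KO. At P2ry13, a purinergic receptor of myeloid cells, they covered 264 and 2574 bp, at Gpr183, the receptor for oxysterols, 292 and 2799 bp. Introns of Etv6, an ETS repressor needed by blood stem cells, and of Mbnl1, a splicing regulator, followed with 235 against 2228 bp and 244 against 2231 bp. Toward WT the ratios were closer to 1. A region near Tnxb, a matrix protein gene, had 2418 bp in WT and 1196 bp in KO, and regions at Foxp1, Capn2, Gsdmd and near Jun had ratios from 0.699 to 0.720.

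The 10 strongest KO-only regions near TSS lay within 554 bp of an annotated TSS. The region named for BC107364 is 35869 bp from the TSS of that gene and has a noncoding TSS nearby. Polr3gl, which encodes a subunit of RNA polymerase III, had a fold enrichment of 12.4 over 779 bp, Cyp51, an enzyme of cholesterol synthesis, 10.7 over 1497 bp, and Rsu1 10.1 over 695 bp. The other 7 were BC107364, Fbxo24 (an F-box protein), Dpp9 (a dipeptidyl peptidase), B4galt3 (a galactosyltransferase), Wrap53 (a telomerase cofactor), Coq10a (a coenzyme Q binding protein) and Vps26c (an endosomal sorting protein), all at 9.55 or more. No WT H3K27ac peak overlapped these regions, yet 9 of the 10 regions carried H3K9ac in WT and 9 in KO, beside 35.3% and 28.2% of all KO-only regions near TSS. H3K4me3 was at 7 in WT and 8 in KO, beside 17.8% and 18.2%. Their sequences above, BC107364 and Rsu1, are the most CpG-dense of the regions shown.

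Far from TSS the strongest KO-only regions were mostly inside genes. These regions are named by the nearest protein-coding TSS, so the named gene need not be the one that holds them. The first were those of Lrp4 (fold enrichment 8.98, 961 bp), Depdc1b (8.89, 1472 bp) and the splicing factor gene Celf2 (8.69). The others were those of the phosphodiesterase gene Pde2a, N4bp3, Filip1l, the importin gene Kpna4, the ephrin receptor gene Epha7, the sphingomyelin synthase gene Sgms1 and Hsdl2 (8.11). H3K4me1 was present in KO at 10 of these 10 and in WT at 3, beside 62.1% and 26.0% of all KO-only regions far from TSS. H3K9ac was present in KO at 7 and in WT at 6, beside 6.96% and 11.1%. None had H3K4me3 in either genotype. The sequences of Lrp4 and Depdc1b above are the strongest of this set.

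The 10 strongest WT-only regions had smaller fold enrichments than the 10 strongest KO-only regions, while the medians of the classes were alike (3.47 and 3.49). The classes hold 2266 and 23132 regions, and the part of class size in this was not tested. The strongest WT-only regions near a TSS were at Mfsd7a (fold enrichment 6.61, 727 bp), Igf2r (6.40, 360 bp), an intergenic site 57274 bp from the TSS of Lmo4, and Alox5 (5.83). Alox5 is the gene of 5-lipoxygenase, which makes leukotrienes in myeloid cells. Snx7, Gm9495, the phosphodiesterase gene Pde4c, the G-protein gene Gna11, Olfr401 and the integrin gene Itgb5 shared a value of 5.72. Of these, the region named for Gm9495 is 54007 bp and that for Olfr401 12338 bp from the TSS of the named gene, and each is near a TSS of another annotated transcript. H3K9ac overlapped 6 of these 10 regions in WT and 6 in KO, beside 34.3% and 24.5% of all WT-only regions near TSS. Farther away the strongest regions are not all named here. They included Inpp5f (6.39), Galnt7 (5.94) and Gadd45g (5.72), and continued with Nfyb, Dynlrb2, Foxk1, Tekt3, Slc7a14 and Zbtb18 down to 5.27. Among the far regions named here, which are not the full set, H3K9ac was present in WT at Inpp5f and Galnt7 and in KO at Inpp5f. Over all WT-only regions far from TSS the shares were 12.2% and 4.31%.

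H3K9ac and H3K4me3, the promoter marks, were far more frequent at shared regions near TSS than at regions of a single genotype. The shared regions near TSS were also wider (median 1036 bp, against 283 bp for WT-only and 343 bp for KO-only). More of them were within 1 kb of the TSS: 11367 of 14863 shared, 443 of 1083 WT-only and 4999 of 11594 KO-only regions. What part width and position have in the shares was not tested. Near TSS, H3K9ac in WT overlapped 87.9% of shared, 34.3% (31.6 to 37.2) of WT-only and 35.3% (34.4 to 36.2) of KO-only regions. H3K9ac in KO overlapped 83.2%, 24.5% (22.0 to 27.1) and 28.2% (27.4 to 29.0) of them. So a region with H3K27ac in KO alone had H3K9ac in WT more often than in KO, both near TSS and farther away (11.1% against 6.96%). Over all positions, 23.2% (22.7 to 23.8) of KO-only regions had H3K9ac in WT and 13.9% (12.6 to 15.4) of WT-only regions had it in KO. At equal list length, KO-only regions near TSS had H3K9ac in KO more often than WT-only regions, 39.9% (38.5 to 41.2) against 32.2% (30.3 to 34.2), and H3K4me3 in KO likewise, 25.9% (24.8 to 27.2) against 20.7% (19.0 to 22.4). In the full lists H3K4me3 of WT and of KO overlapped 65.5% and 67.5% of shared, 16.5% and 15.4% of WT-only, and 17.8% and 18.2% of KO-only regions near TSS.

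H3K4me1, the enhancer mark, went with the KO libraries in all classes. Far from TSS, H3K4me1 overlapped 62.1% (61.3 to 63.0) of KO-only regions in KO and 26.0% (25.2 to 26.8) in WT. But at WT-only regions too it was listed more often in KO (45.2%, 42.4 to 48.1) than in WT (32.0%, 29.4 to 34.8), and at shared regions it was 82.4% against 57.3%. The H3K4me1 list of KO covers 42.1 Mb and that of WT 11.5 Mb, while H3K9ac covers 23.0 Mb in KO and 28.2 Mb in WT. What part these list sizes have in the shares was not tested.

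**Figure D3:**
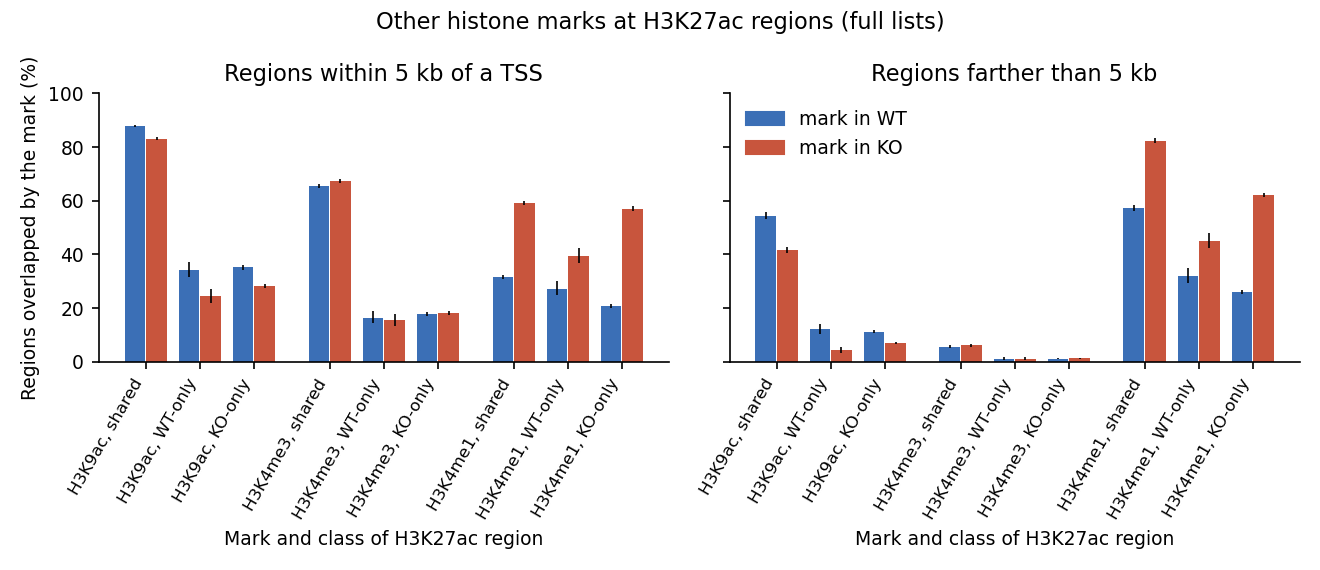
Share of H3K27ac regions (vertical axis, %) that overlapped H3K9ac, H3K4me3 or H3K4me1 of WT and of KO, by class of region, near to a TSS (left) and farther than 5 kb (right); bars are 95% Wilson intervals. H3K9ac is higher in WT and H3K4me1 higher in KO in every class, KO-only regions included.

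Most promoters with H3K27ac in a single genotype had H3K9ac in WT. Of 21938 protein-coding genes, 9634 had a peak between 1 kb before and 500 bp after a TSS in both genotypes, 1283 (5.85%) in KO only and 95 (0.433%) in WT only. At equal list length 852 genes (3.88%) had one in KO only and 283 (1.29%) in WT only. Of the 1283 genes with a KO-only promoter peak, 80% (77.8 to 82.1) had H3K9ac there in WT and 74.9% (72.5 to 77.2) in KO. Of the 95 with a WT-only peak, 61.1% (51.0 to 70.2) had H3K9ac in WT and 53.7% (43.7 to 63.4) in KO. With lists of equal length the shares with H3K9ac in WT were closer, 87.1% (84.7 to 89.2) of KO-only and 79.5% (74.4 to 83.8) of WT-only genes. Genes with a peak in both genotypes had 99.2% and genes with neither 6.21%.

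The length of H3K27ac over whole genes followed the same direction at almost every gene. Covered length was summed from 10 kb before to 10 kb past each gene and compared as a log2 ratio, KO over WT, with 0.5 kb added to both. Over the 9559 genes with at least 2 kb covered when the genotypes are summed, so that a gene could pass through KO alone, the median log2 ratio was 0.58, and 97.3% were longer in KO. With lists of equal length the median over 9105 genes was 0.44, and 93.4% were longer in KO. At least 2-fold longer at equal list length were 769 genes (8.45%) in KO and 8 genes (0.0879%) in WT, against 1686 and 2 in the full lists. H3K9ac lay below 0 on the same scale: its log2 ratio had a median of −0.19 over the 723 of the 769 genes with 2 kb of H3K9ac and of −0.17 over all 8887 genes measured.

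With lists of equal length the largest ratio belonged to the P2ry12 to Med12l locus on chromosome 3, where H3K9ac was longer in KO too. Med12l, a Mediator subunit gene whose introns hold a row of purinergic and related receptor genes, had 2.42 kb in WT and 26.8 kb in KO (log2 3.22, and 2.96 at equal list length, while in the full lists H2-Ob had 3.65). Of the genes inside it, P2ry14, a receptor for UDP-glucose, had 1.09 and 11 kb, Gpr171 0.280 and 5.71 kb, and P2ry13 0.264 and 5.16 kb, and these genes share their peaks with Med12l. H3K9ac covered 8.56 and 8.38 kb of Med12l in the WT replicates and 15.5 and 15.9 kb in the KO replicates, so the groups did not overlap there. Its log2 ratio was 0.85 over Med12l, 1.24 over P2ry14, 0.80 over Gpr171 and 0.37 over P2ry13, while its median over all genes was below 0. At P2ry13 the groups did overlap, with 0.780 and 1.41 kb in WT and 0.829 and 2.28 kb in KO.

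The other genes with the largest ratios had smaller differences in H3K9ac. Cops4, a subunit of the COP9 signalosome, had no H3K27ac peak in WT and 3.78 kb in KO, Egln1, the oxygen sensor that marks Hif1a for decay, none and 2.85 kb, and H2-Ob, a chaperone of class II antigen presentation, none and 5.79 kb. Gpr183 had 0.292 and 5.14 kb. H3K9ac was present in both genotypes over these 4 genes, with log2 ratios of −0.13, −0.11, 0.14 and −0.03.

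The 8 genes with H3K27ac longer in WT by the largest ratio were Tnxb (4.24 kb in WT and 2.07 kb in KO), the epidermal factor Grhl3 (2.63 and 0.972 kb), the calpain gene Capn2 (6.34 and 3.75 kb), Galnt9, the junction protein gene F11r, the fibulin gene Fbln1, 1110008P14Rik and the carnitine transporter gene Slc22a16. Their log2 ratios with lists of equal length ran from −1.98 to −1.01. H3K9ac had a negative ratio at all 8, from −1.43 at Tnxb to −0.45, but 5 of the 8 had 2 kb of H3K9ac, and the replicates overlapped at several. At Tnxb it covered 0 and 2.35 kb in WT and 0 and 0.239 kb in KO, so that ratio rests on WT replicate 2. Over all 8887 genes measured, H3K9ac was longer in KO at 12.7% only, so the sign alone does not set these 8 apart. At Capn2 it covered 1.26 and 4.24 kb in WT and 1.59 and 1.36 kb in KO, and at F11r 1.35 and 4.95 kb in WT and 1.19 and 1.55 kb in KO, so the ratio there rests on WT replicate 2. At Capn2, the promoter peak itself had a fold enrichment of 9.29 in WT and 4.85 in KO.

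**Figure D4:**
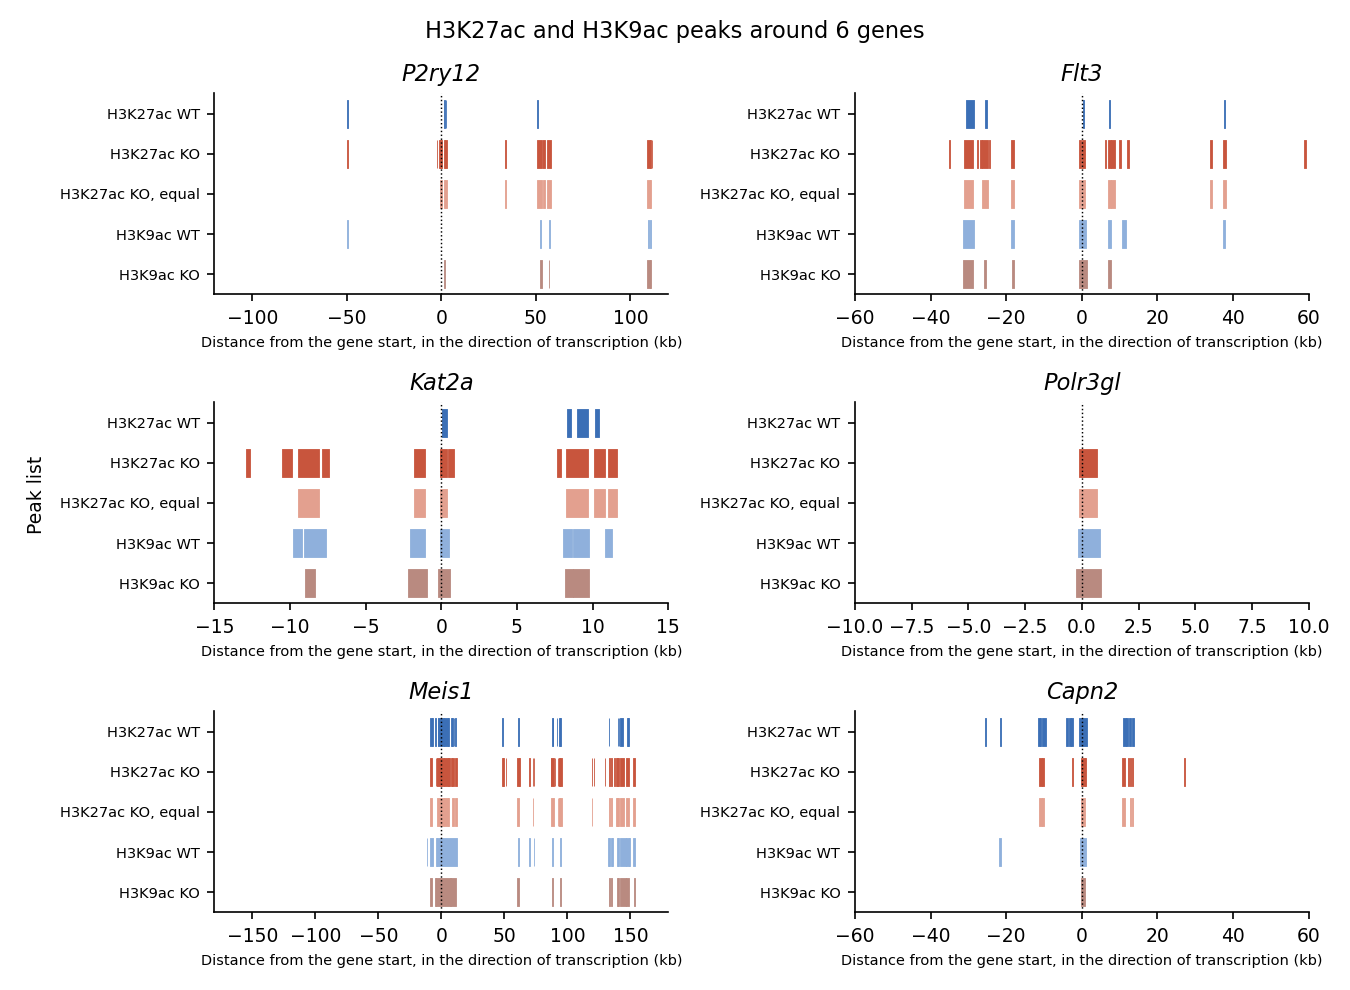
Peaks of H3K27ac (replicate 2) and consensus regions of H3K9ac in WT and KO around 6 genes, drawn as bars against the distance from the gene start in the direction of transcription (horizontal axis, kb), with 1 line for each list. The H3K27ac bars of KO are longer over P2ry12 and its neighbors, Flt3 and Kat2a. Polr3gl has an H3K27ac bar in KO beside H3K9ac of both genotypes, and Capn2 has more H3K27ac in WT. H3K9ac went the other way over Flt3 and Kat2a, with log2 ratios of −0.44 and −0.34.

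The genes that the MLL-AF9 fusion keeps active had H3K27ac in both genotypes. Hoxa9 had 18.6 kb in WT and 21.1 kb in KO and its neighbor Hoxa10 12.2 and 13.9 kb, so the HOXA cluster differed little (log2 0.17 and 0.12 with lists of equal length). Meis1, the partner of Hoxa9 on DNA, had 22.2 and 36.8 kb (0.45). Cdk6, a cell cycle kinase, had the longest stretch of the program, 39.0 and 69.0 kb (0.61). Myb, a transcription factor of progenitors, had 4.05 and 11.2 kb (1.04), Mef2c 12.3 kb and a log2 ratio of 1.01, and Flt3, a cytokine receptor of early progenitors, 0.951 and 7.18 kb (1.76). Id2, an inhibitor of helix-loop-helix factors, was the member that went the other way, at −0.66. In the full lists Id2 had 1.76 kb in WT and 1.62 kb in KO (log2 −0.09). The median log2 ratio of the 20 members measured was 0.57, beside 0.44 over all genes, and 1 of the 22 members, Hoxa5, had a promoter peak in KO only, beside 5.85% of all genes. That peak of Hoxa5 was gone at equal list length, and 0 members had one in KO only. H3K9ac had log2 ratios below 0 at the members with named values above, −0.06 over Hoxa9, −0.09 over Hoxa10, −0.16 over Meis1, −0.29 over Myb and −0.44 over Flt3. Its median over all genes was −0.17.

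Factors that direct myeloid differentiation were spread around the value of all genes. Spi1, which encodes PU.1, had 13.5 kb in WT and 19.2 kb in KO (log2 0.38 with lists of equal length), Cebpb 4.94 and 6.66 kb (0.33), Gfi1 2.80 and 5.75 kb (0.72), and Cebpe, which drives granule formation, 2.19 and 5.56 kb (1.00). Cebpa, needed for granulocytes to form, was the exception with 4.04 and 4.31 kb, and 3.19 kb in the equal-length KO list (−0.30). Irf8, which directs monocytes, had no peak in WT and 0.918 kb in KO, and no peak in the equal-length list. H3K9ac at Irf8 was longer in WT, 5.09 and 3.62 kb against 0.797 and 1.57 kb (log2 −1.53), the opposite of H3K27ac. Myc had 1.02 and 2.85 kb (1.00). The median of this list was 0.41 over 21 genes.

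Granule and effector genes of granulocytes and monocytes had a median ratio above that of all genes. Ltf, Prtn3, S100a8 and Lcn2 are named after their values were seen, as are Cdk6, Mef2c, Id2, Hdac3, Erg, Irf9 and Gbp2 in other lists. Ltf, the lactoferrin gene, had 1.58 kb in WT and 6.17 kb in the equal-length KO list (log2 1.68), the protease gene Prtn3 1.35 and 4.94 kb (1.56), Csf3r, the receptor for G-CSF, 2.29 and 6.21 kb (1.26), and S100a8, a calcium-binding alarmin, 2.23 and 5.97 kb (1.25). Mpo had 0.70 and 1.42 kb (0.68), while Lcn2, an iron-scavenging granule protein, had 3.93 and 2.56 kb (−0.53). Elane, Lyz2 and Mmp8 had a promoter peak in KO only, 3 of 32 members, beside 5.85% of all genes. At equal list length Elane and Lyz2 were left, beside 3.88%, and the log2 ratio of Mmp8 went from 1.57 to −0.30. H3K9ac at Elane was longer in WT, 7.33 and 7.00 kb against 2.45 and 5.64 kb. The median over 27 genes was 0.59, with 8 at least 2-fold longer in KO, beside 8.45% of all genes.

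Many stem and progenitor genes had little or no H3K27ac. Of 19, 8 had no H3K27ac in WT and 4 none in KO, and Cd34 and Kit, surface proteins of progenitors, had at most 0.576 kb. Kit and Tal1, 2 of the 19, had a promoter peak in KO only, beside 5.85% of all genes, and at equal list length Tal1 alone did, beside 3.88%. Tal1, a master factor of blood stem cells, had no peak in WT and 1.69 kb in KO, and there H3K9ac was longer in KO as well (log2 1.06). At Kit H3K9ac was longer in WT, 1.76 and 2.04 kb against 1.19 and 1.36 kb (log2 −0.44). Etv6 had 31.8 kb in WT and 85.5 kb in KO and Erg 25 kb in WT, which makes these ETS factor genes the most covered of the list. The median over the 10 genes measured was 0.58.

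Interferon response genes are of interest here because pIpC and Mx1-Cre act through interferon. KO alone had a promoter peak at Oasl2, Oas2, Rsad2, Ifi27, Ifit2 and Ifit1, antiviral effectors, which is 6 of 27 members beside 5.85% of all genes. At equal list length 3 were left (Rsad2, Ifi27 and Ifit2), beside 3.88%. The peaks were small, from 243 bp at Ifit1 to 996 bp at Oas2. The median log2 ratio over 13 genes was 0.62, from 0.02 at Gbp2 to 1.58 at Irf9, and the list was covered over 19.4 kb in WT and 35.8 kb in the equal-length KO list. H3K9ac at these 6 genes had ratios from −1.04 at Ifit1 to 0.16 at Ifit2. The part of interferon in these peaks was not tested.

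Genes of protein synthesis and respiration, which are active in every growing cell, had promoter H3K27ac in both genotypes. Of 84 cytosolic ribosomal protein genes 80 had a promoter peak in both, and X-linked Rps4x in KO only. Of 78 mitochondrial ribosomal protein genes 72 had it in both and 6 (Mrps15, Mrpl35, Mrpl22, Mrpl45, Mrps27 and Mrps6) in KO only, beside 5.85% of all genes, and 6 also with lists of equal length, beside 3.88%. There Mrps25 had a peak in WT only, the sole member of any list to do so. Of 36 complex I genes 34 had it in both and Ndufa5 and Ndufa1 in KO only, and of 36 aminoacyl-tRNA synthetase genes 35 in both. The median log2 ratios were 0.39, 0.46, 0.30 and 0.41, close to or below the 0.44 of all genes.

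Most genes that write, erase and read acetylation, 22 of 24, had a promoter peak in both genotypes. Kat2b, the paralog of Kat2a, had a promoter peak of 1064 bp at a fold enrichment of 7.50 in WT and of 2528 bp at 11 in KO (log2 0.84 over the gene with lists of equal length). Ep300 had 1626 bp at 18.2 and 1670 bp at 23.2 (0.19), and Crebbp 363 bp at 4.31 and 718 bp at 6.38 (0.62). Hdac3, a deacetylase, had 2.93 kb in WT and 7.18 kb in KO (1.16). Kat2a itself had the highest value of its 2 lists, 1.53. Tada2a, which anchors Kat2a in the ATAC complex, had a promoter peak in KO only, 328 bp at 4.35. It was 1 of 26 SAGA and ATAC genes, beside 5.85% of all genes, and was left at equal list length, beside 3.88%. The medians were 0.38 over 20 writers, erasers and readers and 0.41 over 23 SAGA and ATAC subunit genes.

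Markers of other cell types mostly lacked promoter peaks, but some had as much covered length as leukemia genes such as Mpo and Flt3. Of 12 non-blood genes none had a promoter peak, and the list had 1.28 kb in WT and 1.77 kb in KO. The erythroid genes had 4.12 and 6.81 kb, with Klf1 the most covered (1.86 and 3.26 kb), the B-cell genes 6.04 and 13.5 kb (Cd79a, 3.28 and 3.42 kb), and the T- and NK-cell genes 7.10 and 12.6 kb (Cd3g, 2.57 and 3.53 kb). The megakaryocyte genes had 5.84 and 10.5 kb (Vwf, 2.29 and 4.80 kb). Endothelial and stromal genes had 5.18 and 19.1 kb, of which Pecam1, which is also made by myeloid cells, had 3.95 and 15.9 kb. Promoter peaks in KO only included Epb42 of 13 erythroid genes and Rag2 and Igll1 of 15 B-cell genes. They also included Lck and Nkg7 of 18 T- and NK-cell genes and Gp9 and Itga2b of 8 megakaryocyte genes. Of all genes, 5.85% had such a peak. At equal list length the peaks named here were left, except that of Gp9, beside 3.88% of all genes. Over the gene, Epb42 was longer in WT (1.04 against 0.854 kb) and the others named here were longer in KO. Of the 7 cell cycle inhibitor genes, Cdkn2a alone had a promoter peak in KO only, a small one of 243 bp, which the equal-length list lacked. The median log2 ratio was 0.26 over the 4 inhibitor genes measured, and 0.36 over 10 genes of the MLL complex and its fusion cofactors, of which Aff1 was the most covered (10.8 and 24.3 kb). What part cells of other types have in the H3K27ac of these marker genes was not tested.

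**Figure D5:**
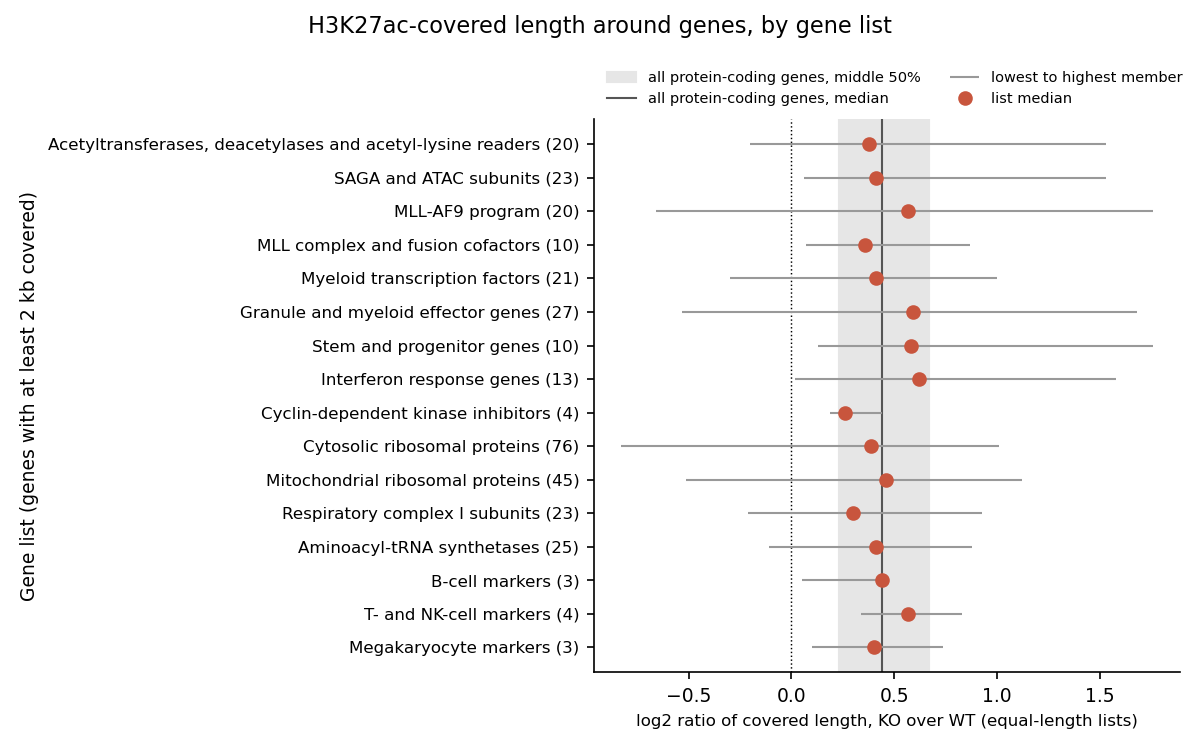
Log2 ratio of H3K27ac-covered length, KO over WT, with lists of equal length (horizontal axis) for each gene list with at least 3 genes measured; dots are medians, lines run from the lowest to the highest member, and the gray band is the middle 50% of all protein-coding genes around their median of 0.44. The medians range from 0.26 to 0.62, all above 0.

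Counted by nearest gene, the 23132 KO-only regions were spread over 7728 genes and the 2266 WT-only regions over 1706 genes. The genes with the most regions were picked out after their counts were seen. Etv6 was the nearest gene of 61 KO-only, 27 shared and 1 WT-only regions, Foxp1, a forkhead repressor of monocyte differentiation, of 60, 25 and 1, Baz2b of 45, 33 and 1, Mbnl1 of 43, 11 and 3, and Runx1 of 40, 24 and 4. With lists of equal length Etv6 still led, with 33 KO-only, 24 shared and 5 WT-only regions, and Foxp1 followed with 22, 23 and 3. Of the WT-only regions, Zmiz1, a coactivator gene, had 10, Id2 7, and Grhl3 and Nfe2l3 6 each, beside 31, 19, 1 and 1 shared and 20, 17, 1 and 1 KO-only regions. At Zmiz1 and Id2 the order turned with list length: at equal length Zmiz1 had 15 WT-only and 6 KO-only regions, and Id2 12 and 10.

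Near TSS, base composition and short motifs set shared regions apart from WT-only and KO-only regions, which were closer to each other. In the full lists, 51.3% (50.5 to 52.1) of shared windows were CpG-rich (at least 50% G and C and a CpG ratio, observed over expected, of at least 0.6), against 11.6% (9.86 to 13.7) of WT-only and 12% (11.4 to 12.6) of KO-only windows. At equal list length the genotype-only shares were 14.7% (13.3 to 16.3) for WT-only and 17.9% (16.8 to 18.9) for KO-only windows. The RefSeq promoters of protein-coding genes, 20150 windows of the same length, gave 46.7%. The SP/KLF letters GGGCGG were in 37.0% of shared, 15.1% (13.1 to 17.4) of WT-only and 13.9% (13.3 to 14.5) of KO-only windows near TSS, and in 47.8% of promoters. The ETS letters CCGGAAGT, common in housekeeping promoters, were in 2.23%, 0.739% and 0.638%, and in 5.35% of promoters. RUNX (14.7%, 22.1% and 20.9%), AP-1 (4.68%, 8.40% and 7.69%) and GATA (6.39%, 10.9% and 12.4%) were the reverse, less common in the shared windows, which hold more G and C.

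Far from TSS the motifs of myeloid factors had similar shares in all classes, while the SP/KLF letters and CpG-rich windows were again more frequent in shared regions. The PU.1 letters GAGGAAGT were in 3.39% of shared, 4.23% (3.22 to 5.53) of WT-only and 3.16% (2.86 to 3.50) of KO-only windows, C/EBP in 11.5%, 12.8% and 11.9%, RUNX in 23.3%, 24.5% and 23.9%, and MEIS in 23.5%, 23.9% and 23.3%. SP/KLF was in 6.44% (5.87 to 7.06), 4.56% (3.52 to 5.91) and 4.94% (4.56 to 5.35), and ETS in 0.743%, 0.761% and 0.390% (0.292 to 0.521). CpG-rich were 2.41% (2.07 to 2.82), 1.01% (0.581 to 1.76) and 0.789% (0.643 to 0.967) of the windows, and median G and C content was 49.3%, 48.3% and 47.7%. These letters are short, and their shares describe the windows without saying which factor binds.

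The replicate 1 lists hold almost no peaks at the stated q-value threshold of 0.05, 13 of 26791 in WT and 0 of 2725 in KO, against 87.6% and 92.4% of the replicate 2 peaks. By the study's methods, an H3K27ac replicate that did not stand clear of its control was left out, without saying which. In these replicate 1 lists the direction turned, and WT had the longer list, which is a weak check at such significance. Of their regions, 26769 were WT-only, 2703 KO-only and 22 shared, and the covered length ratio over the 22 was 0.755. WT replicate 1 had a peak at 13.2% (12.8 to 13.7) of the shared regions of replicate 2, at 1.19% of WT-only and at 1.11% of KO-only regions, and KO replicate 1 at 0.347%, 0.0441% and 0.0432%. So replicate 1 peaks met shared regions more often than those of either genotype alone. Shared regions are also wider (median 1010 bp, against 281 bp for WT-only and 338 bp for KO-only), and the part of width in this was not tested. For KO replicate 1 the shares rest on 74 shared, 1 WT-only and 10 KO-only regions. The longer and wider KO list therefore rests on 1 library per genotype and has no replicate check, and read depth, which the lists do not give, cannot be told apart from genotype.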

How the data were processed

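H3K27ac was measured by ChIP-seq in 2 libraries per genotype. The authors aligned reads to mm10 with BWA and called peaks with MACS2 in each library (versions not stated). The deposited lists give, per peak, the fold enrichment (a ratio) over local background. Significance is deposited as a −log10 p-value and a −log10 q-value. The authors state a q-value threshold of 0.05, while their lists reach p = 0.01. They used input to judge the enrichment of each sample, but whether it was the control of the MACS2 calls is not stated. Read depth is unknown, and input libraries were not used.

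Peaks were compared and merged at an overlap of at least 1 bp in Python 3.11.15 (numpy 2.4.6, pandas 2.3.3, scipy 1.17.1, pysam 0.24.0, matplotlib 3.10.9), and the interval code was checked against bedtools 2.31.1 on simulated data. TSS came from GENCODE M21. The promoter of a gene reached from 1 kb before to 500 bp after any TSS. The equal-length KO list kept the peaks of largest −log10 p. H3K9ac and H3K4me3 regions had a peak in both replicates, and H3K4me1 came from replicate 2. Intervals are 95% Wilson intervals. No test among samples was possible with 1 library per genotype. Alternatives were equal list length, the 10000 strongest peaks, q of at most 0.05 or 0.001, replicate 1, the consensus of replicates, 50% overlap, merging over 1 kb, other TSS and promoter definitions, H3K9ac in either replicate, 50 kb flanks and autosomes only.

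Named were 25 genes of MLL-AF9 leukemia and acetylation, and the 10 strongest regions of each genotype alone, near and far from TSS. Also named were the 8 genes with the largest and the 8 with the smallest ratio of covered length, the 5 shared regions widest toward each genotype, and list members with a promoter peak in 1 genotype. Members and lists were chosen with earlier results of these data known. Some of the items these rules name are not reported here.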

Additional observations from a re-analysis of the deposited data

How the results depend on the processing

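The values are given in 1 order: shares of WT and of KO peaks with a partner; shared, WT-only and KO-only regions; shares of these within 5 kb of a TSS; median covered length ratio; genes with a WT-only and with a KO-only promoter peak; shares of WT-only regions with H3K9ac in KO and of KO-only regions with H3K9ac in WT. Values not listed for an alternative moved by no more than their interval or, for counts, 1.5-fold. Equal list length gave 85.2% and 68.1%, 4395 WT-only and 9490 KO-only regions, 71.4%, 50.3% and 53.4%, 283 and 852 genes, and 20.1% and 33.1%. The 10000 strongest peaks gave 84.2% and 76.0%, 7497 shared and 2397 KO-only regions, 85.8%, 67.0% and 73.5%, a ratio of 1.35, 564 genes with a WT-only peak, and 73.4% and 90.2%. A q-value of at most 0.05 gave 93.0% and 48.5%, 71.3% of shared and 51.1% of KO-only regions near a TSS, and 15.6% and 26.5%. A q-value of at most 0.001 gave 96.0% and 47.3%, 696 WT-only regions, 76.6%, 54.5% and 54.2%, 1980 genes with a KO-only peak, and 26.0% and 40.2%. Without replicate 2, the replicate 1 lists gave 0.0821% and 0.807%, 22, 26769 and 2703 regions, 54.5%, 31.3% and 21.9%, 2753 and 72 genes, and 12.4% and 2.03%, and the ratio turned to 0.755 over 22 regions, in lists where 13 WT and 0 KO peaks pass the q-value threshold of 0.05. The consensus of replicates gave 1.02% and 33.3%, 26 shared and 52 KO-only regions, 80.8%, 85.7% and 73.1%, a ratio of 1.40, 2299 and 25 genes, and 92.8% and 75%. Merging over 1 kb gave 97.4% and 71.1%, 740 WT-only and 10547 KO-only regions, 43.5% and 44.1% of genotype-only regions near a TSS, a ratio of 1.53, and 12.4% and 21.7%. An overlap of 50% gave 88.7% and 46.9%, and 18.4% and 24.2%. It has no value for the ratio or the genes. Its other values are of peaks and not of merged regions, so they are not in the unit of the main values. It gave 26404 WT peaks with a partner, and 3353 WT and 24440 KO peaks without. Within 1 kb of a TSS were 53.3%, 19.5% and 21.6%, and within 5 kb of a protein-coding TSS 62.6%, 36.2% and 40.2%. H3K9ac in either replicate gave 25.8% and 38.0%. The cause was not tested for any of these.

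Autosomes only, chosen after seeing the data, moved none of the 13 results, and promoters of 5 kb moved neither gene count. Of 20 medians of gene lists, equal list length moved 12 and 50 kb flanks 10, and none reversed. Of the motif shares, equal list length moved 11 and left 55. No paired analysis was possible because the main lists hold 1 library per genotype. Depth is unknown, so a peak missing from a list was not detected at that depth and is not shown to be absent.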
